A study of Mus musculus with 4 samples.

Results

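The sections described here are the cross-sections of mouse tibialis anterior muscle that were richest in transcripts of fibrillar collagen. For every section, the counts of Col1a1, Col1a2 and Col3a1 were added, divided by the section's transcripts from genes outside the mitochondrial genome and multiplied by 1000000, which gave a score in parts per 1000000 (ppm). In each muscle the 25% of sections with the highest score were selected, so the members were chosen by these measured collagen values. This gave 43 of 171 sections that the authors had kept out of 384 section barcodes: 9 of 37 in muscle 1, 11 of 45 in muscle 2, 12 of 46 in muscle 3 and 11 of 43 in muscle 4. The other 128 kept sections served for comparison.

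The 4 muscles were assayed by TOMO-seq, in which serial cryosections of a tissue are barcoded 1 by 1 and sequenced together. The labels give 1 group, murine tibialis anterior, a fast muscle of the shin, and state no strain, sex, age, genotype or treatment. They do not say whether the muscles came from separate animals, so p-values concern these 4 samples, whose spread may be technical. Sections are placed by barcode number, and neither the cutting order nor the proximal end is named in the labels.

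Collagen I is a heterotrimer of the chains encoded by Col1a1 and Col1a2 and forms the thick fibrils of tendon and of the sheets around muscle fascicles. Collagen III, encoded by Col3a1, forms finer fibrils and is abundant in the compliant mesh around single muscle fibres and vessels. Within muscle both are made mainly by fibroblasts and fibro-adipogenic progenitors, the Pdgfra-positive stromal cells that lie between fibres, whereas tendon is built by tenocytes that also secrete tendon proteoglycans. Each value here is a mixture over all cells of a section, so more cells of a type and more RNA per cell cannot be told apart.

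The score that chose the sections is a description and was not tested. In muscle 1 its median was 946.7 ppm in collagen-rich and 533.8 in other sections, and the collagen-rich sections reached 1835. In muscle 2 the medians were 460.4 and 311.3, in muscle 3 they were 1192 and 897, and in muscle 4 they were 1180 and 815. The ratio of the medians was 1.77, 1.48, 1.33 and 1.45 in muscles 1 to 4, so the collagen-rich sections stood out most in muscle 1. The sections at the edge of the selection hardly differed, with 734.4 just inside and 728.6 just outside in muscle 1, 403.5 and 391.7 in muscle 2, 1064 and 1062 in muscle 3, and 1028 and 999 in muscle 4. The score of a collagen-rich section rested on 28 to 738 counted transcripts. Its variance over all kept sections was 19.3, 3.24, 6.84 and 7.03 times what counting error alone would give in muscles 1 to 4.

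**Figure D1:**
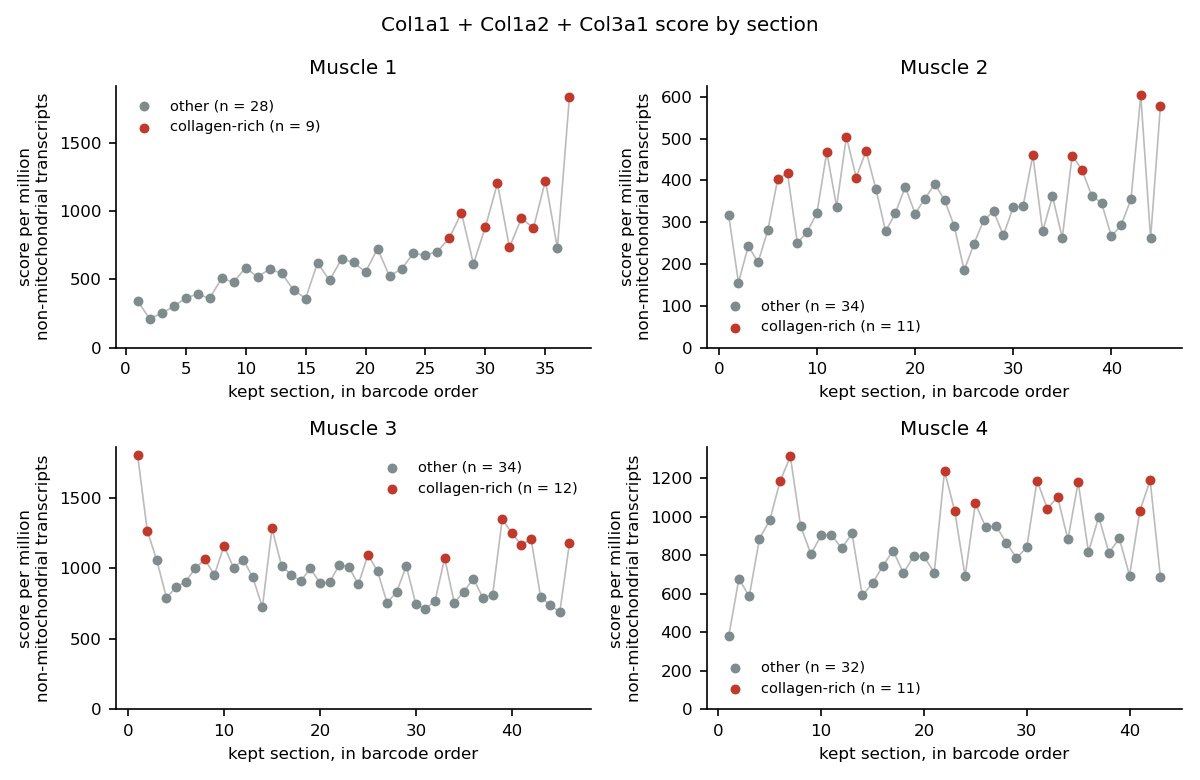
Score of Col1a1, Col1a2 and Col3a1 in ppm of non-mitochondrial transcripts (y axis) for each kept section in barcode order (x axis), 1 panel per muscle, with the collagen-rich sections in red and the other sections in grey. In muscle 1 the score climbs towards the high barcode numbers, and in muscles 2 to 4 the red sections are scattered.

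The collagen-rich sections were placed differently in each muscle. Along 5 zones of equal length per muscle, 8 of 35 sections of zone 1 were collagen-rich, 5 of 32 of zone 2, 4 of 33 of zone 3, 8 of 34 of zone 4 and 18 of 37 of zone 5. In muscle 1 they occupied zone 4, with 2, and zone 5, with 7, and none lay in zones 1 to 3. In muscle 2 the zones held 2, 4, 0, 2 and 3 of them, in muscle 3 they held 4, 1, 1, 1 and 5, and in muscle 4 they held 2, 0, 3, 3 and 3. In muscle 1, collagen score and position therefore cannot be told apart.

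Collagen I and collagen III transcripts ran together weakly or not at all along the muscle. Spearman's rho between the collagen I transcripts (Col1a1 plus Col1a2) and the Col3a1 transcripts of a section, both in ppm, was -0.045 over 37 sections of muscle 1, 0.017 over 45 of muscle 2, 0.19 over 46 of muscle 3 and 0.30 over 43 of muscle 4. These are descriptions over sections of 1 muscle, which share their library and the same denominator. A section held 2 to 91 Col3a1 transcripts in muscle 1 and 0 to 38 in muscle 2. Counting error at low counts pulls rho towards 0, so the values near 0 are uncertain. The collagen I chains did run together, with rho of 0.87, 0.38, 0.45 and 0.62 between Col1a1 and Col1a2. Had the highest 25% been taken by collagen I alone and by Col3a1 alone, 0 of 9, 3 of 11, 5 of 12 and 4 of 11 sections would have been in both. In all this was 12 of 43, close to the share of all kept sections that either ranking takes, 43 of 171. The total therefore does not show that the 2 rankings attract or avoid each other.

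Most collagen-rich sections were rich in collagen I. Of the 43, 35 were also in the highest 25% by collagen I and 19 in the highest 25% by Col3a1, none of the latter in muscle 1. In muscle 1 the collagen-rich sections had a lower median of Col3a1, at 108.9 ppm against 147.3 in the others. In muscles 2, 3 and 4 their Col3a1 median was higher, at 128.2 against 91.1, 415.9 against 306.3 and 364.8 against 282.6. Counted as 3' ends without scaling by length, Col1a1 made up 19.4% to 27.4% of the score, Col1a2 44.3% to 51.5% and Col3a1 21.1% to 35.2%, depending on the muscle. All these values entered the score, so they describe the selection and do not test its label.

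**Figure D2:**
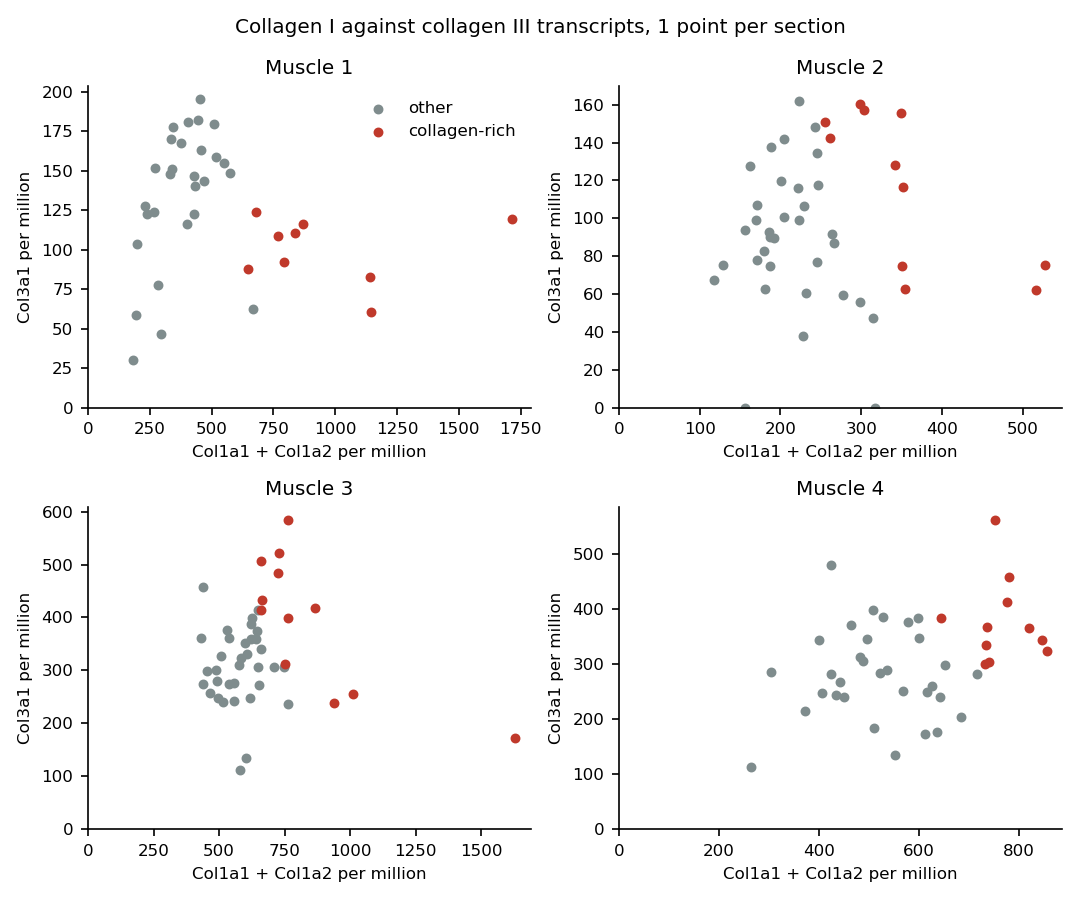
Col3a1 (y axis) against Col1a1 plus Col1a2 (x axis), both in ppm of non-mitochondrial transcripts, with 1 point per kept section and 1 panel per muscle, collagen-rich sections in red. In muscle 1 the red points lie to the right and none lies among the highest sections by Col3a1, and in muscles 3 and 4 some are high on both axes.

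Depth and mitochondrial share were compared as medians over sections. The median section held 480538, 243124, 373781 and 547322 transcripts on the collagen-rich side of muscles 1 to 4 and 491695, 403155, 620411 and 521938 on the other side. The mean difference was -98109 ± 127415 (SD, n = 4 muscles), lower in 3 of 4 muscles (exact two-sided sign-flip permutation test, p = 0.375). Genes detected differed by -578 ± 902 (SD, n = 4; same exact test, p = 0.375). The share of mitochondrially encoded transcripts was lower by a small amount on the collagen-rich side in 4 of 4 muscles, with a mean difference of -1.25 ± 0.76 percentage points (SD, n = 4; exact test, p = 0.13), which is the smallest p that this test can give with 4 muscles.

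Summed over sections, the collagen-rich sides held more transcripts of the secreted proteins Prg4, Chad, Fmod and Angptl7, the membrane protein Nnat and the signalling protein Net1, and no gene passed the test as lower. Of 10785 genes tested, 6 were called, and all 6 were higher: Nnat, Chad, Prg4, Fmod, Angptl7 and Net1. The share called over all genes was 0.0556% (edgeR quasi-likelihood test with muscle as block, Benjamini-Hochberg adjusted p under 0.05). At an unadjusted p under 0.05 there were 579 genes, 307 higher and 272 lower, and the median log2 difference over all genes tested was 0.0019. Tpr, Acsf2, Mtor and Blcap overlap Prg4, Chad, Angptl7 and Nnat in that order on the other strand, so their counts may hold reads of these genes, and Fmod and Net1 have no such partner. Col1a1, Col1a2 and Col3a1 were left out of the test because they chose the sections. Levels below are in CPM, counts per 1000000 counts of a summed library, and differences are log2 of collagen-rich over other.

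The RefSeq promoters of Chad and Fmod are shown because both genes encode leucine-rich proteoglycans of tendon matrix that were called together. Each runs from 250 bases before to 50 bases after the gene's start on the + strand of GRCm38.p6, and capitals mark matches to CANNTG, the E-box bound by basic helix-loop-helix factors such as the tendon factor Scx. The window of Chad is chr11:94564797-94565096 and that of Fmod is chr1:134037004-134037303.
Chad: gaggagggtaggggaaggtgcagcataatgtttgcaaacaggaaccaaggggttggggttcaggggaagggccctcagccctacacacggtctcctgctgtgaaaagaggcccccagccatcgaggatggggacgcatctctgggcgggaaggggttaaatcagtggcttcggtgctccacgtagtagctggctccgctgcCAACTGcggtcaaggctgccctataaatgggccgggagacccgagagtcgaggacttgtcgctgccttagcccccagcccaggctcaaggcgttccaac
Fmod: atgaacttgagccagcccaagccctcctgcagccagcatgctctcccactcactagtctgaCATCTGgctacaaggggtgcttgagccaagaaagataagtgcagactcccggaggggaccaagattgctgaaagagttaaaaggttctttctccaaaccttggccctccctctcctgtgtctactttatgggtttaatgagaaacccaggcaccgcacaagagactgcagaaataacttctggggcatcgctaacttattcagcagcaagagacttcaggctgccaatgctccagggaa
Each held 1 match, and 72.3% of the 32851 promoters of the table held at least 1, with a median of 1, so the match does not set these promoters apart. The motif reads the same on both strands, and a match is not a binding site. The promoter table had entries for 5 of the 6 called genes.

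Prg4 encodes lubricin, the secreted glycoprotein that coats gliding surfaces of joints and tendon sheaths. On the collagen-rich side it had 95.2, 33.5, 11.3 and 13.5 CPM in muscles 1 to 4, against 22.8, 23.2, 10.1 and 10.4 CPM on the other side. Every muscle was higher on the collagen-rich side, and muscle 1 stood far above the others. The fitted difference was 1.02 ± 0.15 log2 units (SE; edgeR adjusted p = 9.49e-06), a 2.03-fold rise, with 2.06, 0.52, 0.15 and 0.37 in the single muscles. In muscle 1 the 9 collagen-rich sections had 18 to 85 Prg4 transcripts each (median 52) and the 28 others 1 to 39 (median 6.5), so the groups overlapped. In muscle 3 the medians per section were 6 and 4.5, and in muscle 4 they were 5 and 4. Prg4 lies on chromosome 1 at 150449412 to 150466165 (GRCm38), minus strand.

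Chad, or chondroadherin, is a leucine-rich matrix protein that binds collagen and cells in cartilage and tendon. It had 28.8, 6.32, 5.09 and 4.99 CPM on the collagen-rich side and 5.71, 2.48, 3.10 and 4.09 CPM on the other. Again muscle 1 was the highest, and the sides of every muscle kept the same order. The fitted difference was 1.45 ± 0.19 (SE; edgeR adjusted p = 1.48e-06), with 2.30, 1.29, 0.68 and 0.27 by muscle. In muscle 1, Chad was found in 9 of 9 collagen-rich sections, at 9 to 19 transcripts, and in 19 of 28 others, at 0 to 17. It lies on chromosome 11 at 94565047 to 94569127, plus strand.

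Fmod, or fibromodulin, is a small leucine-rich proteoglycan that binds collagen I and regulates fibril growth. Its CPM were 21.8, 2.90, 4.01 and 7.70 on the collagen-rich side and 4.94, 1.45, 3.14 and 3.72 on the other. The fitted difference was 1.35 ± 0.19 (SE; edgeR adjusted p = 9.49e-06), with 2.10, 0.92, 0.33 and 1.01 by muscle. Muscle 3 was the lowest and muscle 1 the highest of the 4 differences. Of its 37 transcripts in the 11 collagen-rich sections of muscle 4, 14 came from a single section. Fmod lies on chromosome 1 at 134037254 to 134048277, plus strand.

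Angptl7 encodes a secreted angiopoietin-like protein, and it is named here after its values were seen, because its level was below the minimum of 10 CPM of the naming rule. It had 12.7, 7.11, 1.08 and 1.46 CPM on the collagen-rich side and 3.14, 2.27, 0.67 and 1.12 CPM on the other. The difference was 1.58 ± 0.23 (SE; edgeR adjusted p = 1.36e-05), with 1.96, 1.57, 0.57 and 0.33 by muscle. Muscles 1 and 2 carried most of its transcripts, and in muscles 3 and 4 the collagen-rich sides held 7 each. Angptl7 lies on chromosome 4 at 148495183 to 148500460, minus strand.

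Net1, which activates the small GTPase RhoA, is not a matrix gene. It had 28.4, 15.8, 18.1 and 17.9 CPM on the collagen-rich side and 13.8, 14.2, 12.6 and 13.8 CPM on the other. The other sides were nearly level, at 13.6 ± 0.67 (SD, n = 4), and each collagen-rich side was above all of them. The difference was 0.56 ± 0.11 (SE; edgeR adjusted p = 0.00622), with 1.03, 0.15, 0.51 and 0.37 by muscle. Of 24 other settings Net1 was called in 10 and not in 13 with the same sign, among them limma with equal section weights (0.59, limma adjusted p = 0.0736), thinned sections (0.29, edgeR adjusted p = 0.946) and the highest 10% of sections (0.31, edgeR adjusted p = 0.996). Net1 lies on chromosome 13 at 3882018 to 3918220, minus strand.

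Nnat encodes neuronatin, a small membrane protein of the endoplasmic reticulum found in neurons and fat cells, and stood on the list of fat cell markers. It had 8.43 and 14.8 CPM on the collagen-rich sides of muscles 1 and 2 against 1.28 and 2.55 CPM on the others. In muscles 3 and 4 it was close to undetected, with 1 transcript in each muscle. The fitted difference of 2.57 ± 0.25 (SE; edgeR adjusted p = 4.79e-10) therefore describes muscles 1 and 2, where it was 2.55 and 2.45. In muscle 2, 29 of the 56 transcripts on the collagen-rich side came from the last section. The same section held the most Adipoq, the fat cell hormone adiponectin, with 9 of 28, and the most Cfd, the fat cell serine protease adipsin, with 8 of 29. Without the outermost sections the Nnat difference was 2.12 (edgeR adjusted p = 8.10e-06). Nnat lies on chromosome 2 at 157560078 to 157562522, plus strand.

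**Figure D3:**
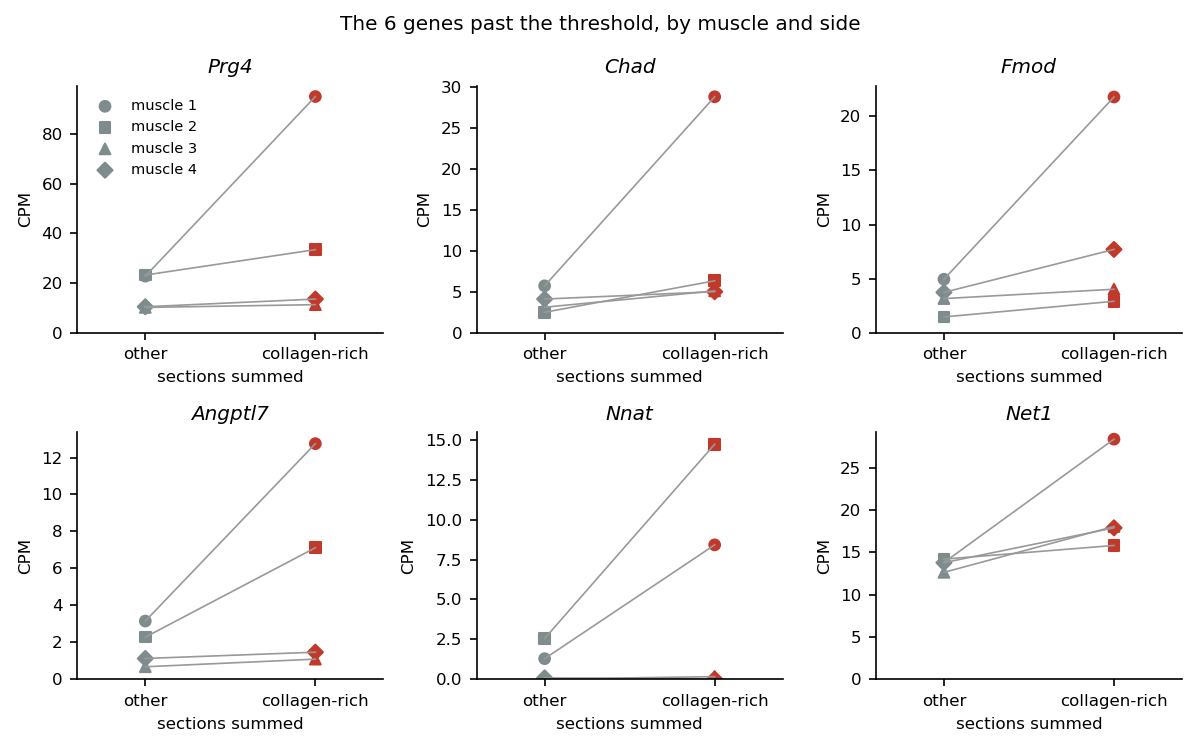
CPM of the 6 genes past the threshold (y axis) in the summed other and collagen-rich sections (x axis), with a line and a marker shape per muscle. Prg4, Chad and Fmod reach 95.2, 28.8 and 21.8 CPM on the collagen-rich side of muscle 1, and Nnat is close to 0 in muscles 3 and 4.

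None of these 6 genes was called without muscle 1. There, Prg4 was at 0.37, Chad at 0.74, Fmod at 0.75, Angptl7 at 1.17 and Net1 at 0.37, with edgeR adjusted p from 0.454 for Angptl7 to 0.506 for Prg4, and Nnat was too low to be tested. Net1 was also not called without muscle 3 (0.57, edgeR adjusted p = 0.263). Muscles 1 and 2 used another set of section barcodes than muscles 3 and 4. Within muscles 1 and 2 the differences were 1.42 for Prg4, 2.08 for Chad, 1.93 for Fmod, 1.87 for Angptl7, 2.60 for Nnat and 0.67 for Net1, and Net1 was not called there (edgeR adjusted p = 0.995). Within muscles 3 and 4 they were 0.25, 0.52, 0.70, 0.53, not tested and 0.45, and none of the 6 was called there. The 9 genes called within muscles 3 and 4 (0.0827% of those tested) were others, 2 higher and 7 lower, with H2-Aa (0.39) and H2-Eb1 (0.42), both chains of class II antigen presentation, as the higher ones. The lower ones were Peak1 (-0.72), Gm15564 (-0.66), Filip1l (-0.53), Atp2a1 (-0.50), mt-Rnr2 (-0.43), mt-Co1 (-0.39) and mt-Nd1 (-0.38). Peak1, Gm15564 and Filip1l overlap genes on the other strand. Atp2a1 and the mitochondrial genes used at least 90% of their possible molecular identifiers in some section, so their values are uncertain. Atp2a1 is also part of the score's denominator, so a section rich in it scored lower by the rule itself. The difference between the barcode sets was not tested. DESeq2 called Nnat alone, and edgeR without the block for muscle called 0 (56 at an unadjusted p under 0.05).

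The differences were smaller when position was matched. When the highest 25% was taken within each zone, so that both sides covered the length of the muscle alike, 29 of the 42 sections chosen were the same. Prg4 then stood at 0.47 (edgeR adjusted p = 0.0259) and Nnat at 1.66 (edgeR adjusted p = 0.000741), and both were still called. Chad at 0.56, Fmod at 0.45, Angptl7 at 0.62 and Net1 at 0.19 were not. In all, 6 genes or 0.0551% were called under this ranking. Of the other 4, Acta2, the smooth muscle actin (0.33), the cell cycle repressor Rbl2 (0.33) and the actin-binding Pfn1 (0.24) were higher. Atp2a1, the calcium pump of fast fibres (-0.36), was lower. Its transcripts are part of the score's denominator, so a section rich in them scored lower by the rule itself. Atp2a1 also used at least 90% of its possible molecular identifiers in some section, so its value is uncertain.

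The differences depended on which collagen ranked the sections. Ranked by Col1a1 and Col1a2, 12 genes were called (0.112%), among them all 6 of the genes above, with Prg4 at 1.12, Chad at 1.51 and Fmod at 1.495. Sparc, a collagen-binding matricellular protein (0.26, adjusted p = 0.0488), Itgbl1 (0.83), the stretch-induced Ankrd1 (0.90), Mss51 (0.40) and Rbl2 (0.36) were also higher, and the fast oxidative myosin Myh2 was lower at -0.32. Ranked by Col3a1, 24 genes were called (0.224%) and Prg4 was lower, at -0.39 (edgeR adjusted p = 0.0454). Chad at -0.52, Fmod at -0.54, Angptl7 at -0.34, Nnat at -0.83 and Net1 at -0.05 had the opposite sign too but were not called.

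**Figure D4:**
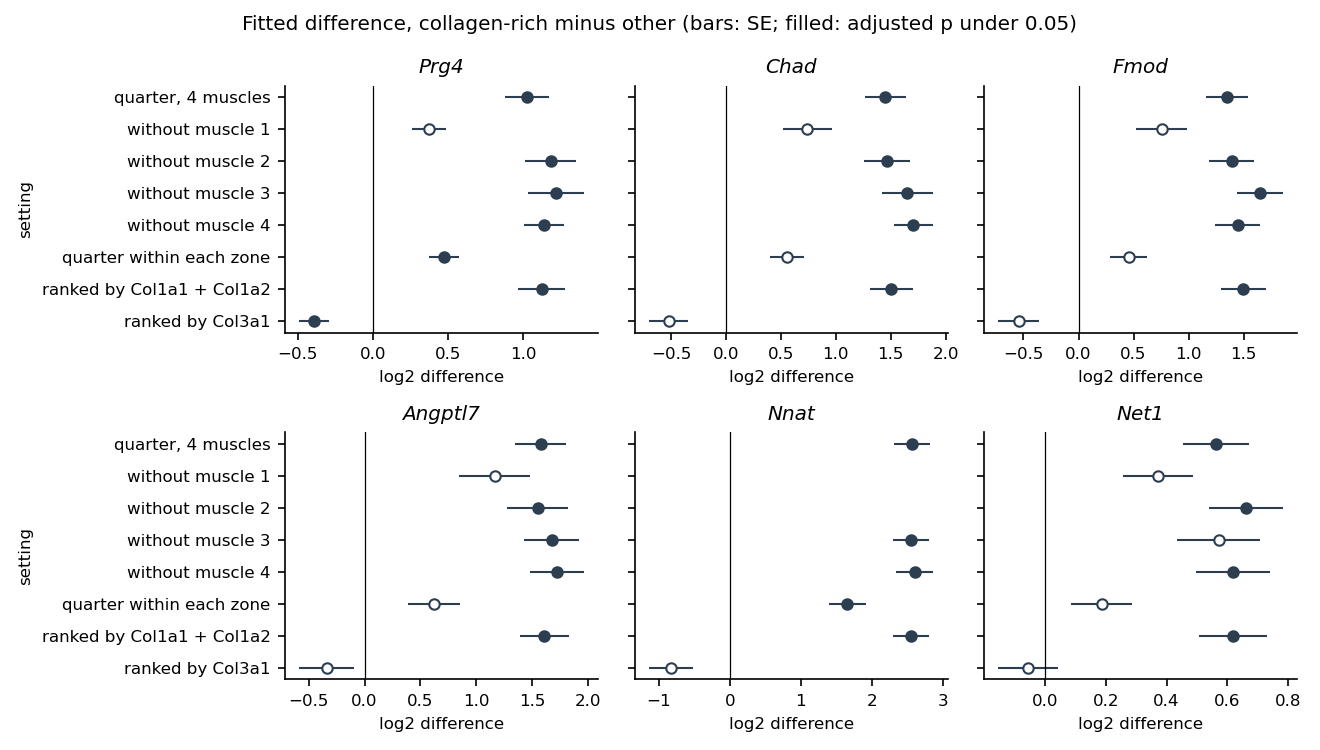
Fitted log2 difference, collagen-rich minus other sections, of the 6 called genes (x axis) in the main comparison and under 7 other settings (y axis), with bars for the SE and filled points for an edgeR adjusted p under 0.05. Without muscle 1 the points that could be fitted are open, and ranked by Col3a1 they lie to the left of 0.

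Sections ranked by Col3a1 differed from the rest in other genes. The 16 genes called higher under that ranking included the haemoglobin genes Hba-a2 (0.39), Hba-a1 (0.31) and Hbb-bs (0.27), the actin-severing protein Gsn (0.25), the Wnt antagonist Sfrp5 (1.02), the mast cell tryptase Tpsb2 (0.52), the lipid transporter Abca8a (0.25) and Lpl, the lipoprotein lipase (0.18). The 8 called lower included Ankrd1 (-0.96), Pcp4 (-0.74), Sorcs1 (-0.56), Gucy2c (-0.51), Atp2a1 (-0.41) and Mss51 (-0.37). Of 14 tested markers of fibro-adipogenic progenitors, 12 were positive with a median of 0.20, and Gsn was called. All 7 tested tendon genes were negative, with a median of -0.28. The median over all genes was -0.00046. Hba-a1 and Hba-a2 are near-identical copies of each other, and Hbb-bs resembles Hbb-bt, so the way reads were divided within each pair is uncertain. Atp2a1 reached the limit of what its molecular identifiers could count, so its values are uncertain, and it is part of the score's denominator.

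Read section by section, the tendon list had a higher rho with collagen I than with Col3a1 in each muscle, and the stromal list had a higher rho with Col3a1. Over the sections of muscles 1 to 4, rho between collagen I and the summed share of the 11 tendon genes was 0.88, 0.16, 0.25 and 0.42, whereas that between Col3a1 and the same genes was -0.15, -0.11, 0.00 and -0.10. In muscle 2 the tendon list (0.16) and the stromal list (0.15) were alike in their rho with collagen I. The adhesive and matricellular list went with both, at 0.62, 0.40, 0.38 and 0.21 for collagen I and -0.01, 0.36, 0.49 and 0.42 for Col3a1. For the stromal list of 15 markers of fibro-adipogenic progenitors the values were 0.20, 0.15, 0.06 and 0.04 for collagen I and 0.71, 0.40, 0.38 and 0.50 for Col3a1. Col3a1 also went with the macrophage list (0.63, 0.25, 0.60 and 0.39), the Schwann cell list (0.47, 0.42, 0.29 and 0.51) and the elastic fibre and microfibril list (0.33, 0.52, 0.43 and 0.68). It was opposed to the fast fibre list, at -0.45, -0.33, -0.47 and -0.39, but went with the slow fibre list, at 0.75, 0.25, 0.31 and 0.43. Most of the lists had a positive median rho with Col3a1, capillary endothelium (0.38) among them, so this was not particular to stromal, immune and nerve cells. The lists with a negative median were those of fast fibres, glycolysis, tendon, collagen receptors and the myotendinous junction. All these points share a denominator within a section, and a larger share of fibre transcripts lowers every other share.

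**Figure D5:**
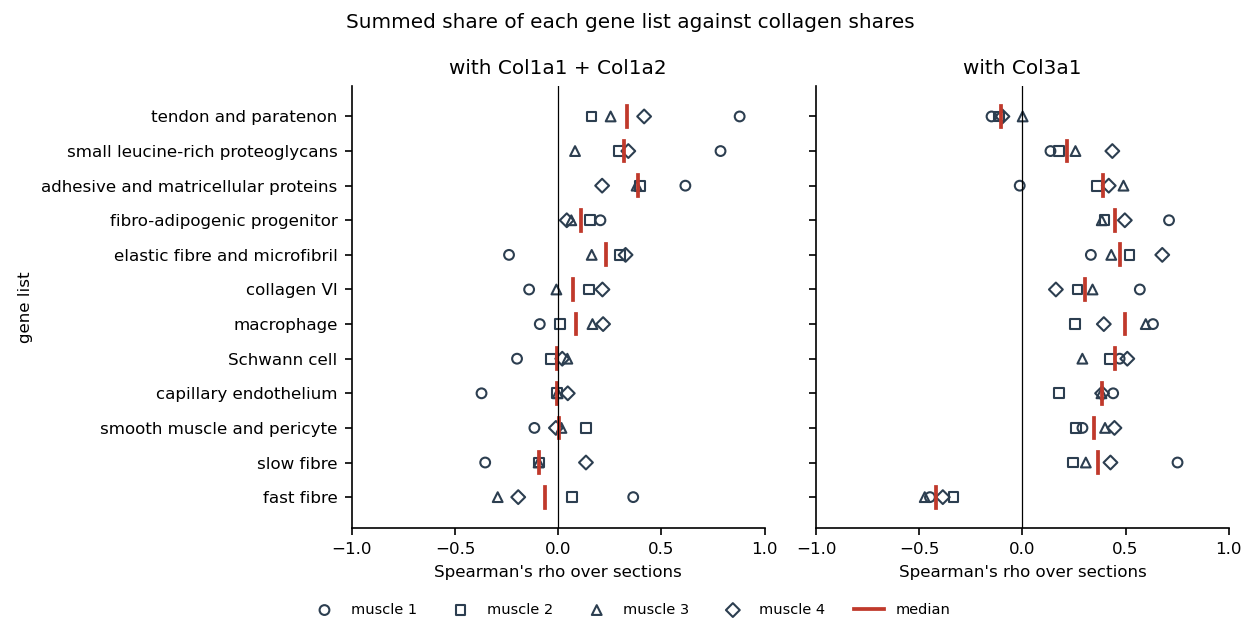
Spearman's rho over the kept sections of a muscle (x axis) between the summed share of a gene list (y axis) and the share of collagen I transcripts (left) or of Col3a1 (right), with a marker shape per muscle and a red bar for the median of the 4 muscles. The tendon list lies to the right of 0 for collagen I and at or left of it for Col3a1. For Col3a1 the medians of all lists shown except tendon and fast fibre lie to the right.

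Among 4979 genes with a mean of at least 2 transcripts per section in every muscle, Sparc was the one most like collagen I, with rho of 0.60, 0.46, 0.56 and 0.13. Its median of 0.51 stood apart from the second gene, Schip1, at 0.35, and from the median over all genes of 0.019. Net1 was seventh at 0.31 and Mss51 ninth at 0.31. Prg4 was not among the first 10. Chad, Fmod, Angptl7 and Nnat did not reach a mean of 2 transcripts per section in every muscle, so they were not ranked. For Col3a1 the leading genes were Ptma, the small acidic nuclear protein prothymosin alpha, at 0.50, the microfibril protein Mfap5 at 0.50, Pitpnc1 at 0.49, Abca8a at 0.45 and the proteoglycan Lum at 0.45, against a median of 0.078. Mss51 was near the bottom of the order for Col3a1, at -0.29. This ranking was chosen after the data were seen, and these values are a description.

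The tendon list held 3 of the 6 called genes. Of 11 genes on the list 7 passed the filter on low counts, 3 of them were called higher, and all 7 fitted differences were positive, with a median of 1.02. Over all genes tested 0.0556% were called and 50.6% were positive. The median was 1.58, 0.66, 0.33 and 0.33 in muscles 1 to 4. Tnmd, the tenocyte membrane protein tenomodulin, had a difference of 1.17 ± 0.28 (SE) that did not pass (edgeR adjusted p = 0.129), from 125 transcripts in all. Scx, the transcription factor of tendon progenitors, was at 0.41, Thbs4, a thrombospondin of tendon and its junction with muscle, at 0.21, and the cartilage and tendon matrix protein Cilp at 0.27. None of these 3 was called, and each was higher in 3 of 4 muscles. Mkx, Comp, Cilp2 and Kera had 55 to 95 transcripts each and were not tested.

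Among the small leucine-rich proteoglycans, Fmod and Chad were called and the more widely expressed members were not. Prelp, which anchors collagen to basement membranes, had 26.7, 16.1, 11.3 and 14.4 CPM on the collagen-rich side and 14.1, 11.1, 10.4 and 11.1 CPM on the other. Its difference of 0.52 ± 0.11 (SE) just missed the threshold (edgeR adjusted p = 0.0515). Dcn, or decorin, the commonest of these proteoglycans in stroma, differed by 0.05, Lum by -0.06, Bgn by -0.18, Ogn by 0.03 and Aspn by 0.06. Of 12 genes listed 8 were tested, with a median of 0.06.

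None of the other collagen genes tested passed. Of 8 further fibrillar collagen genes 6 were tested, none was called, 2 were positive and the median was -0.04. Col5a1 and Col5a2, whose product nucleates collagen I fibrils, were at -0.02 and -0.19. Of the collagens that decorate fibrils 5 of 10 were tested, none was called, 4 were positive and the median was 0.37. Col12a1 was at 0.63, Col22a1, the collagen of the junction between muscle and tendon, at 0.42, and Col14a1 at -0.07. Collagen VI, a beaded filament around fibres, had a median of 0.07 over 4 genes tested, with Col6a1 at 0.10 and Col6a2 at 0.08. The 12 tested genes of basement membrane collagens and laminins had a median of -0.04, with Col4a1 at 0.02 and Lama2 at 0.12, and none was called.

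No gene on the lists for collagen processing, elastic fibres, adhesive proteins, proteases or TGF-beta signalling was called in the main comparison. Of 25 genes for collagen folding, cross-linking and processing 18 were tested, 13 were positive, none was called and the median was 0.11. Serpinh1, the collagen chaperone, was at -0.07, the prolyl hydroxylase subunit P4hb at 0.14 and the cross-linking enzyme Lox at 0.39. The 12 tested genes of elastic fibres and microfibrils had a median of 0.10, from -0.31 to 0.66, the highest being Fbln1, or fibulin 1, and Mgp, the matrix Gla protein, was at 0.28. The 11 tested adhesive and matricellular genes had a median of 0.14, with Sparc at 0.24 ± 0.06 (SE; edgeR adjusted p = 0.236) the fibronectin gene Fn1 at 0.30 and Thbs2, a thrombospondin of connective tissue, highest at 0.73. Fbln1 and Thbs2, named after their values were seen, were higher in 4 of 4 muscles without a call. Sparc had 142, 116, 92.3 and 107 CPM on the collagen-rich side and 114, 93.6, 88.4 and 87.5 CPM on the other, higher in 4 of 4 muscles. The 16 tested genes of TGF-beta signalling, a main inducer of collagen synthesis, had a median of 0.09 with 12 positive, and the 14 tested proteases and inhibitors had a median of 0.004. None of these genes was called.

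Markers of the stromal cells that make collagen in muscle were mostly on the negative side, without a call. All 15 markers of fibro-adipogenic progenitors were tested, 4 were positive and the median was -0.10, with -0.29, -0.19, -0.06 and 0.11 in muscles 1 to 4. Over all genes tested 50.6% were positive. Pdgfra was at -0.23, Cxcl14 at -0.25 and Mfap5 at -0.13, whereas the most abundant markers Gsn, Dcn and Ly6a were at 0.11, 0.05 and 0.03. Summed over the list, the log2 difference was -0.09, 0.04, 0.04 and 0.15 in muscles 1 to 4. When the selection was made within zones, 12 of the 15 were positive and the median was 0.10, so the sign of the list depended on how position was treated.

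No fibre gene was called in the main comparison, although Atp2a1 was called lower within muscles 3 and 4. The 13 genes of fast fibres had a median of 0.03 with none called, and Atp2a1 was at -0.31 ± 0.08 (SE; edgeR adjusted p = 0.212), with 0.07, -0.30, -0.38 and -0.62 by muscle. Atp2a1 made up a median of 9.59% to 15.7% of the non-mitochondrial transcripts of a section, depending on muscle and side. These transcripts are the denominator of the score, so a section rich in Atp2a1 scored lower by the rule itself. All 7 tested genes of slow fibres were negative without a call, with a median of -0.28, which was -0.77 in muscle 1 and 0.13 in muscle 4. Myl3, the slow myosin light chain, was at -0.33 and Myh2 at -0.27 (edgeR adjusted p = 0.218). Of 18 nuclear genes of oxidative phosphorylation 17 were negative, with a median of -0.04, and the median was -0.20, 0.01, 0.05 and -0.04 in muscles 1 to 4. The lists of glycolysis (0.03), the neuromuscular junction (0.01) and the myotendinous junction (0.00) had medians near 0, and Ankrd1 in the latter was at 0.40 without a call.

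Markers of other cells differed in sign between the muscles. The 5 tested red cell genes had a median of -0.24, from -1.15 in muscle 1 to 0.18 in muscle 2, and Hba-a1 was at 598 CPM against 1328 CPM in muscle 1 and at 1354 against 1111 in muscle 2. The Schwann cell list had a median of -0.07, with -0.77 in muscle 1 and 0.39 in muscle 4. The macrophage list had 0.07, with -0.51 in muscle 1 and 0.25 in muscle 4. The mast cell list had -0.33 and the capillary list -0.09. The smooth muscle and pericyte list had 0.02, with Acta2 at 0.11. Of the 7 fat cell markers 2 were tested, Nnat and Cfd, and Cfd was at 1.13 ± 0.27 (SE) without passing (edgeR adjusted p = 0.144), with 1.56, 1.59, 0.26 and -1.34 by muscle. Adipoq had 14 and 28 transcripts on the collagen-rich sides of muscles 1 and 2 and 1 and 3 on those of muscles 3 and 4, and was not tested. Its level was 2.88, 7.38, 0.15 and 0.62 CPM there against 0.77, 1.45, 0.48 and 0.89 CPM on the other sides, so it was lower on the collagen-rich side in muscles 3 and 4. None of the 6 skin markers had enough counts for a test. The part of these cells in the differences above was not tested.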

How the data were processed

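Total RNA of single cryosections was barcoded by CEL-Seq2, which counts transcript 3' ends, with molecular identifiers of 6 bases and section barcodes of 8 bases, per the labels' protocols. The authors deposited estimated counts per gene and barcode. The submitters' processing notes name STAR 2.7.7a and the build GRCm38. How reads were counted, and whether by strand, is not given in the sources used here. From the values, the deposited estimated counts are numbers of identifiers corrected for collisions among 4096, and 22 genes (13 mitochondrial) used at least 90% of them in some section. The authors also deposited a normalized signal for a filtered set of sections, used here to learn which sections were kept.

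Rounded sums per muscle and side (8 in all, 3396418 to 21082769 transcripts) entered edgeR 4.0.16, run in R 4.3.3 (TMM scaling, filterByExpr, quasi-likelihood F-test, muscle as block, Benjamini-Hochberg at 0.05), which was tested on simulated data first. Entries naming several genes, 0.58% to 0.93% of transcripts, were left out. Both sides of a muscle come from the same sample, so the block pairs them. SE and p rest on information shared across genes, with a biological coefficient of variation of 5.95%. The spread between muscles can be wider, for Prg4 an SD of 0.87. Named were called genes with at least 10 CPM and 1 sign in 4 muscles (2 of the 6) and list members. The members and lists were chosen with earlier results of these data known. Of 28989 genes, 28907 matched GENCODE M21, which gave coordinates. Since strand use is unknown, counts of Prg4, Chad, Angptl7, Nnat, Prelp and Myh2 can include reads of an overlapping antisense gene. The same holds for other genes named here, among them Scx, Atp2a1, Myl3, Pdgfra, Fn1, Lox, Lama2 and Rbl2. It also holds for the collagen genes Col4a1, Col5a1, Col12a1, Col14a1 and Col22a1. Alternatives are listed at the end.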

Additional observations from a re-analysis of the deposited data

Results flagged for a closer look

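Of 68 values tested for a muscle far from the other 3, 1 stood out, and chance alone gives about 1 in 20 such groups. Sparc, the collagen-binding matricellular protein, differed by 0.061 log2 units between collagen-rich and other sections in muscle 3, against 0.31, 0.31 and 0.28 in muscles 1, 2 and 4.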

How the results depend on the processing

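The number of genes called was 6 in the main comparison. It was 1 with DESeq2 (Nnat; 76 at an unadjusted p under 0.05), 25 without the filter on low counts (11 higher and 14 lower), 14 with limma and equal section weights, 13 with saturated genes left out, 11 with the score taken over the transcripts of all genes, 12 ranked by Col1a1 and Col1a2 and 24 ranked by Col3a1. The highest 25% against the lowest 25% gave 0 calls in edgeR (382 genes at an unadjusted p under 0.05). Without the replicate block for muscle the edgeR count was 0 (56 at an unadjusted p under 0.05). Leaving out 1 muscle gave 1 to 13 genes, the fewest without muscle 1 and the most without muscle 4. Ranked by Col3a1, the sign reversed for Prg4 (-0.39), Net1 (-0.054), Angptl7 (-0.34), Chad (-0.52), Fmod (-0.54), Nnat (-0.83), Hba-a1 (0.31) and Ankrd1 (-0.96); the cause was not tested. The difference in genes detected reversed to 24 when a larger share of sections, 56 of 171, was selected. Of 722 values of the 31 named genes that were not called, 84 changed sign without a call. Of 726 medians of gene lists, 70 moved by more than the spread between muscles. Nnat could be tested in 18 of 24 other settings. It could not be tested where muscle 1, muscle 2 or both were left out, in thinned sums, in thinned sections or against the lowest 25%. Angptl7 could not be tested in thinned sections or against the lowest 25%. In simulated counts, 50 genes each were changed by -1, -0.5, 0.5 and 1 log2 units, alike in every muscle, unlike in the data. The changed genes lay above about 10 CPM, and all genes shared the same coefficient of variation. Of the changes of 0.5 units 86% to 96% were recovered, and of those of 1 unit 100%. Of 10335 unchanged genes 9 (0.087%) were called. That share cannot be set against the 0.0556% called in the data, because calls among changed genes loosen the adjusted threshold. Of the 6 called genes 4 had a mean below 10 CPM, so the recovery rates do not cover them.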
